A study of Mus musculus with 33 samples.

Results

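Secreted Wnt antagonists were followed through a fibroblast-to-osteoblast conversion in mouse cells. The group was given as a list of 10 named genes (Sost, Sostdc1, Dkk1, Dkk2, Dkk3, Sfrp1, Sfrp2, Sfrp4, Wif1 and Notum). It was set by name and by no cutoff on a measured value, but with earlier results of these data known. The count table holds 17982 genes. All 10 are in that table, and 9 passed the filter on low counts that left 13438 genes for testing. Sostdc1 did not pass. Poly-A RNA was sequenced from 3 libraries each of fibroblasts, induced osteoblasts (iOB), calvarial osteoblasts (calvarial-OB) and green fluorescent cells sorted from iOB (iOB GFP+). For the last group the authors' table of fold changes was used, not counts.

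The fibroblasts were grown out of tail tips of Col2.3GFP mice, whose reporter is driven by a fragment of the type I collagen promoter that is active in the osteoblast lineage, and were used after 2 passages. Thawed Col2.3GFP fibroblasts became iOB by exposure to a lentivirus coding for transcription factors that the labels do not name. The virus was removed at 24 h, the cultures were divided on day 3 and medium for bone formation was added from day 5. Calvarial-OB carry the source label of a calvarial progenitor cell and the cell type label osteoblast differentiation, and no reporter allele is named for them in their titles. Because their titles also carry the mark dataset 2, what sets these cells apart cannot be told apart from what sets that dataset apart. The day of harvest and the number of animals are not given, and no group received virus alone or medium alone. The labels do not say that libraries came from separate cultures, so p-values measure only the spread between these libraries, which may be technical.

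Wnt proteins bind a Frizzled receptor together with the co-receptor LRP5 or LRP6, which stabilises beta-catenin and turns on genes through TCF and LEF factors; in bone this pathway favours osteoblast formation. Secreted antagonists act at the cell surface in different ways. Sclerostin (Sost), the related Sostdc1 and the Dickkopf proteins Dkk1 and Dkk2 bind the co-receptors, secreted Frizzled-related proteins and Wif1 bind the Wnt proteins themselves, and Notum is an enzyme that strips the lipid that Wnt proteins need for receptor binding. In bone, sclerostin is made mostly by osteocytes, the cells buried in the matrix.

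The 9 libraries held 5646299 to 15023771 counts, and libraries of a group correlated across genes at 0.967 to 0.991. Levels are given as CPM, which scales each count to a common library size, with sizes adjusted by the trimmed mean of M-values (TMM). A gene was called where its adjusted p was below 0.05 in edgeR's quasi-likelihood test over all genes. Labels were checked against marker genes: all 9 osteoblast markers were called higher in iOB and in calvarial-OB than in fibroblasts, beside 22.7% and 28.4% of all tested genes. The summed osteoblast markers reached 17500 to 19000 CPM in fibroblasts, 30900 to 36800 in iOB and 37500 to 65600 in calvarial-OB. Col1a1 made up most of these sums, with means of 18200, 28600 and 50300 CPM. Markers of other cells also differed, and their part in the results below was not tested. The 9 macrophage markers in the table summed to 29.8 to 63.9 CPM in fibroblasts, 1990 to 3230 in iOB and 3200 to 5780 in calvarial-OB. All 9 were called higher in both osteoblast groups, beside the same shares of all tested genes. The 7 adipocyte markers summed to 130 to 144, 284 to 340 and 1120 to 1830 CPM in the same order, with Adipoq, Cfd and Cidec at 0 counts in fibroblasts. The 5 chondrocyte markers summed to 552 to 908, 68.6 to 93.2 and 252 to 513 CPM, with Matn1 at 0 counts in fibroblasts and iOB; the cartilage collagen Col2a1 was 12.4-fold and its regulator Sox9 4.81-fold lower in iOB than in fibroblasts, while Acan and Col9a1 were higher. The 6 fibroblast markers summed to 20900 to 22900, 7170 to 7550 and 6640 to 7680 CPM, most of it Fn1 (means 17900, 4450 and 3890). Against fibroblasts, 4 of the 6 were called lower in iOB, beside 20.6% of all tested genes. In calvarial-OB 3 were lower (27.4%) and 1, Dpt, was 3.73-fold higher (28.4%). The 6 osteoclast markers summed to 112 to 161, 240 to 254 and 283 to 318 CPM. Most of that was Ctsk (means 141, 219 and 276), and only 2 of the 6 were tested. Keratinocyte and endothelial markers summed to at most 13.2 CPM in any library, and the ranges of smooth muscle markers overlapped between calvarial-OB and both other groups. Summed smooth muscle markers were lower in iOB (1370 to 1590 CPM) than in fibroblasts (1820 to 2540), without overlap. In such bulk libraries, fewer cells of a type and less RNA per cell cannot be told apart.

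Among the antagonists, the 2 osteoblast groups had different sets at high levels. Unsorted iOB had more Notum, Sfrp1, Dkk2 and Dkk3 RNA than either other group. Calvarial-OB had more Sost, Dkk1, Sfrp2, Sfrp4 and Wif1 RNA than either other group. Sostdc1 stayed at a few counts per library throughout. Relative to fibroblasts, 6 members were called higher and none lower in iOB, beside 22.7% and 20.6% of all tested genes (43.3% in either direction); Sfrp2 was not called, and Sost and Dkk1 had too few counts for a test. In calvarial-OB against fibroblasts, 5 members were called higher and 2 lower, beside 28.4% and 27.4% of all genes (55.8% in either direction). Between iOB and calvarial-OB, 4 members were called higher in iOB and 4 lower, beside 24.7% and 24.1% (48.8% in either direction). Libraries of the compared groups did not overlap for 7 of the 9 members in iOB against fibroblasts, where 63.0% of all tested genes did not overlap, and for all 9 in calvarial-OB against fibroblasts (60.5%) and iOB against calvarial-OB (55.5%). The median log2 fold change in iOB against fibroblasts was 1.82 over 8 members, with Dkk1 at its lower bound and Sost left out for want of counts (2.51 over all 9 fitted values). It was 1.93 over 9 members in calvarial-OB against fibroblasts, with Sost and Dkk1 at their lower bounds, and -1.14 over 9 in iOB against calvarial-OB, with Sost at its count ratio. The medians of all genes were -0.04, 0.02 and -0.03. Sost, Dkk1, Sfrp4 and Notum were near 0 in at least 1 group and passed the filter through the groups where they are high, so these counts and medians describe the table and are no test of the list.

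**Figure D1:**
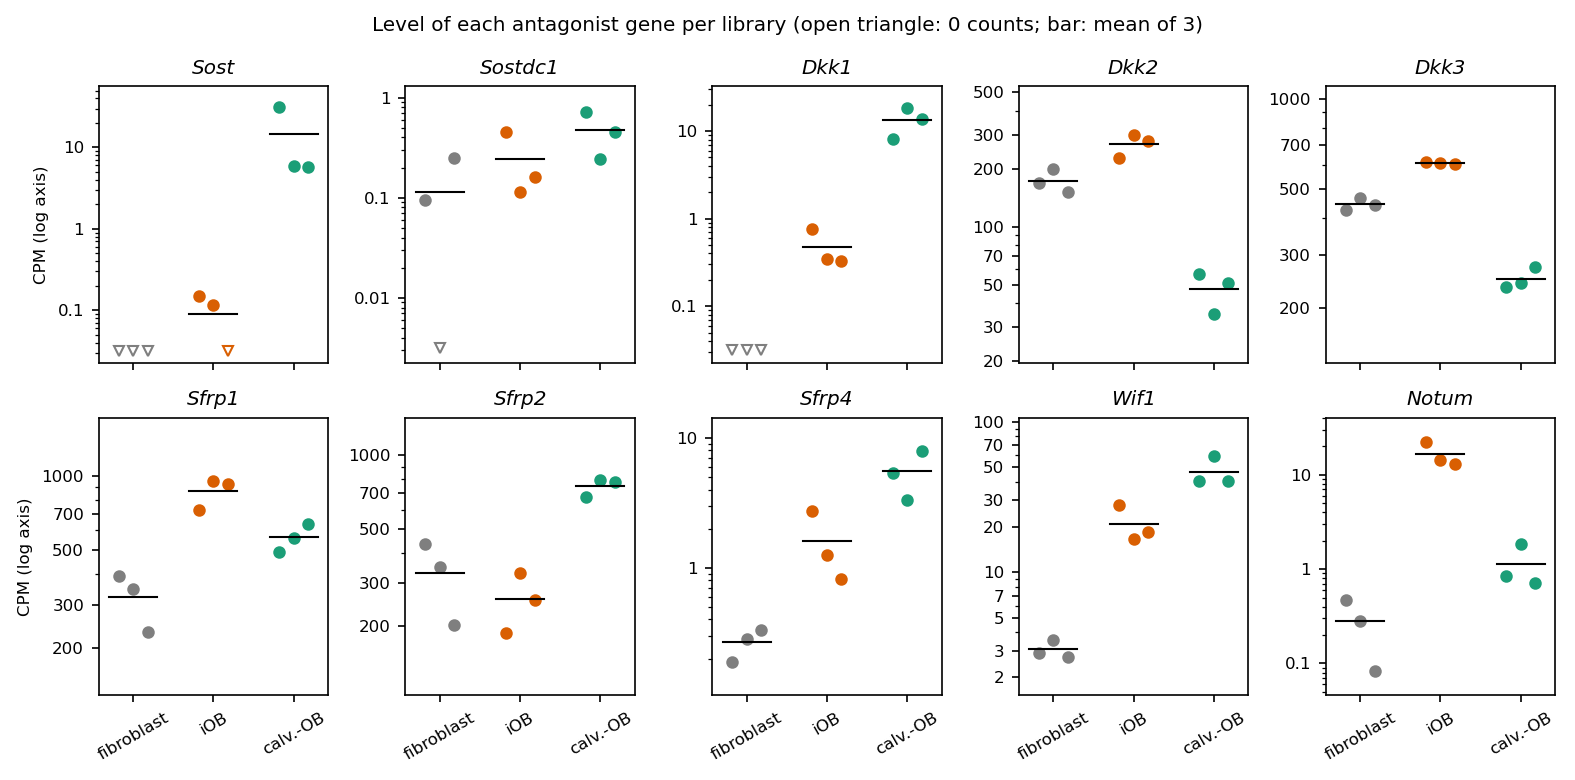
Level of each of the 10 antagonist genes in CPM (log axis) in the 3 fibroblast, 3 iOB and 3 calvarial-OB libraries; each point is a library, bars are means of 3 and open triangles mark libraries with 0 counts. Notum stands at 13.1 to 22.4 CPM in iOB and at most 1.84 CPM in the other libraries, while Sost and Dkk1 are at 0 counts in every fibroblast library.

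Sost, which encodes sclerostin, had 0 counts in the 3 fibroblast libraries, 1, 1 and 0 counts in iOB, and 261, 48 and 89 counts in calvarial-OB. In CPM, the calvarial-OB libraries stood at 31.6, 5.88 and 5.79 and the iOB libraries at 0.151, 0.115 and 0. Every calvarial-OB library was above every other library, and calvarial-OB replicate 1 was far above its 2 fellows. The calvarial-OB mean was 14.4 ± 14.9 CPM (SD, n = 3), an SD of 103% of the mean. Fibroblasts had 0 of 31644762 counts, which allows up to 0.101 CPM (3 counts; counting error only). Against that floor, Sost was at least 124-fold higher in calvarial-OB, and the bound was 57.7 without calvarial-OB replicate 1, 187 without its replicate 3, and 79.8 and 73.8 without fibroblast replicates 1 and 3. Against iOB the pooled count ratio was 134, with a 95% Clopper-Pearson interval of 36.9 to 1110 for counting error only. That ratio fell to 62.5 without calvarial-OB replicate 1 and was 202 without its replicate 3. Between iOB and fibroblasts both groups were at or below 3 counts, so no fold is given.

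Other osteocyte genes did not share 1 order over the calvarial-OB libraries. Dmp1, a matrix phosphoprotein of osteocytes, was at 19.5, 47.1 and 35 CPM in calvarial-OB replicates 1, 2 and 3, lowest where Sost was highest. Mepe, another such matrix protein, was at 12.9, 14.1 and 8.78 CPM there. Phex, an osteocyte endopeptidase, was at 79.1, 66.2 and 58.1 CPM, highest in replicate 1 as Sost was. In iOB, where Sost had 2 counts in all, Dmp1 reached 16.6, 31.3 and 44.9 CPM, a range that overlaps calvarial-OB. Mepe stayed at 0.151, 0.687 and 0.163 CPM and Phex at 4.08, 12 and 8.17 CPM in iOB, both below every calvarial-OB library. Pdpn, also listed as an osteocyte gene, went the other way. It was at 133, 140 and 137 CPM in iOB, above 74.3, 73.7 and 84.1 CPM in calvarial-OB. Fibroblasts had 91.7, 71.4 and 106 CPM of Pdpn, a range that overlaps calvarial-OB. The last listed gene, Fgf23, had 3 counts in all in fibroblasts, 2 in iOB and 1 in calvarial-OB.

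Sostdc1, a relative of sclerostin, had 1, 0 and 3 counts in fibroblasts, 3, 1 and 1 in iOB, and 6, 2 and 7 in calvarial-OB. The groups overlap. Summed over the 3 libraries, it stood at 0.134 CPM in fibroblasts (95% Poisson interval 0.0366 to 0.344), 0.233 in iOB (0.0756 to 0.544) and 0.472 in calvarial-OB (0.264 to 0.778). All 3 intervals overlap, which is not a test of a difference. Sostdc1 did not pass the count filter and was not tested, so no order of the groups is given.

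The Dickkopf genes did not move as one. Dkk1, which binds LRP5 and LRP6 and blocks Wnt signalling, had 0 counts in the 3 fibroblast libraries, 5, 3 and 2 counts in iOB and 67, 149 and 211 in calvarial-OB. This is 0.755, 0.344 and 0.327 CPM in iOB and 8.1, 18.2 and 13.7 CPM in calvarial-OB, with no overlap between any 2 groups. Calvarial-OB replicate 1, the highest library for Sost, was the lowest of its group for Dkk1. Dkk1 was 27.8-fold lower in iOB than in calvarial-OB (log2 fold change -4.8 ± 0.45 SE, edgeR adjusted p = 2.2e-05). The gene passed the count filter through calvarial-OB, where it is high, so this p-value is no support for the difference. Relative to fibroblasts it was at least 133-fold higher in calvarial-OB, and at least 85.6-fold and 79.2-fold without fibroblast replicates 1 and 3. In iOB its 10 counts gave a bound of at least 4.62-fold, which was 2.97 and 2.75 without fibroblast replicates 1 and 3.

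Dkk2, which can block or weakly stimulate the pathway depending on the receptors present, was at 168, 198 and 152 CPM in fibroblasts, 228, 298 and 278 in iOB and 57, 35.1 and 51.1 in calvarial-OB. The 3 groups do not overlap, with iOB highest and calvarial-OB lowest. Dkk2 rose 1.56-fold in iOB against fibroblasts (log2 0.64 ± 0.17 SE, edgeR adjusted p = 0.0095) and was 3.6-fold lower in calvarial-OB than in fibroblasts (log2 -1.85 ± 0.18, adjusted p = 3.8e-06). The direct comparison gave 5.61-fold more in iOB than in calvarial-OB (log2 2.49 ± 0.18, edgeR adjusted p = 1e-06).

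Dkk3, a divergent Dickkopf that is not an established LRP5 or LRP6 ligand, followed the same order. Its levels were 425, 464 and 443 CPM in fibroblasts, 612, 609 and 604 in iOB and 235, 243 and 274 in calvarial-OB. Libraries of a group lay close together, and the groups do not overlap. Dkk3 rose 1.37-fold in iOB (log2 0.45 ± 0.09 SE, edgeR adjusted p = 0.0022) and fell by 0.82 on the log2 scale in calvarial-OB (SE 0.09, adjusted p = 1.7e-05), both against fibroblasts. It was 2.42-fold higher in iOB than in calvarial-OB (edgeR adjusted p = 1.3e-06).

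Within single libraries the balance of the Dickkopf genes also shifted. The count of Dkk3 divided by that of Dkk2, a ratio that needs no library scaling but is not a ratio of molecules, was 2.53, 2.35 and 2.92 in fibroblasts and 2.68, 2.04 and 2.17 in iOB, which overlap. In calvarial-OB it was 4.13, 6.91 and 5.37, above every other library. The pairs of genes used for such ratios were picked after their values were seen.

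Promoter letters of Sost, Dkk1 and Dkk2 are shown because these 3 co-receptor ligands differed between the osteoblast groups in opposite directions, Dkk2 being higher in iOB. RefSeq promoter entries on GRCm38.p6 matched 5 of the 10 members (Sost, Dkk1, Dkk2, Sfrp2 and Wif1). Each stretch is the 250 bases before the annotated start, 5′ to 3′ on the gene's strand: chr11:101967016-101967265 on the minus strand for Sost, chr19:30549497-30549746 on the minus strand for Dkk1 and chr3:132085042-132085291 on the plus strand for Dkk2. Capitals mark matches, on either strand, to a TATA box (TATAAA), to the core bound by TCF and LEF factors in its forms CTTTGA (searched first) or CTTTGT (searched next), or to the core that RUNX factors bind, spelled TGTGGT here; no matches overlap in these stretches.
Sost: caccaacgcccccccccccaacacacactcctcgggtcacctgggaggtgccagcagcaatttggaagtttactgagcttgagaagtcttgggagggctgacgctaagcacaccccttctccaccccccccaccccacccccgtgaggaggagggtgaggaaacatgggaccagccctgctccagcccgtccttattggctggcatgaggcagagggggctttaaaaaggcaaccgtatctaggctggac
Dkk1: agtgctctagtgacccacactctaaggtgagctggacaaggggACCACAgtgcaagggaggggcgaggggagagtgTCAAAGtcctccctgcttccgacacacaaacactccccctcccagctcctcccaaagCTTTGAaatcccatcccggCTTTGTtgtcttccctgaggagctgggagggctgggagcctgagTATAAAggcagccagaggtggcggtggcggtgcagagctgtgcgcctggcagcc
Dkk2: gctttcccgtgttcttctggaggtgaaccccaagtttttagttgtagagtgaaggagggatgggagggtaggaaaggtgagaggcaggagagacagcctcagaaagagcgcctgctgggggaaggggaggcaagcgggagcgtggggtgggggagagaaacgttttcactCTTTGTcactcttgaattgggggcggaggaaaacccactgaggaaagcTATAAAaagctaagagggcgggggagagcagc
The Sost stretch holds none of these letters and has 61.2% G or C bases and 6 CpG dinucleotides. In Dkk1 both TCF and LEF forms and a TATA box are found on the gene's strand, one more TCF and LEF core and a RUNX core read on the opposite strand, with 60.8% G or C and 6 CpG. The Dkk2 stretch holds one TCF and LEF core and a TATA box, with 55.6% G or C and 7 CpG. Of 32851 RefSeq promoters of this length, 27.6% hold a TCF and LEF core of either form, 12.4% the TATA box and 14% the RUNX core, so each match is common and is a description of the letters only. Sfrp2 and Wif1, with 16 and 21 CpG, have neither a TCF and LEF core nor a RUNX core in this window. The median promoter has 6 CpG.

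Secreted Frizzled-related proteins carry a Frizzled-like domain that captures Wnt proteins, and their 3 measured genes differed in where they peaked. Sfrp1 was at 390, 346 and 231 CPM in fibroblasts, 728, 957 and 928 in iOB and 490, 561 and 635 in calvarial-OB. No groups overlap: iOB libraries were highest and fibroblasts lowest. Sfrp1 rose 2.7-fold in iOB (log2 1.43 ± 0.18 SE, edgeR adjusted p = 6.5e-05) and 1.74-fold in calvarial-OB (log2 0.8 ± 0.18, adjusted p = 0.0027). It was 1.55-fold higher in iOB than in calvarial-OB (edgeR adjusted p = 0.013).

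Sfrp2 was at 436, 350 and 203 CPM in fibroblasts, 188, 329 and 257 in iOB and 673, 792 and 782 in calvarial-OB. Fibroblast and iOB libraries overlap, and every calvarial-OB library lies above both. Sfrp2 rose 2.27-fold in calvarial-OB against fibroblasts (log2 1.19 ± 0.25 SE, edgeR adjusted p = 0.0016) and was 2.9-fold lower in iOB than in calvarial-OB (log2 -1.53 ± 0.25, adjusted p = 4e-04). The difference between iOB and fibroblasts was -0.35 ± 0.25 on the log2 scale (edgeR adjusted p = 0.28), not larger than the spread between libraries. It passed the threshold only when fibroblast replicate 3 was left out (-0.57, edgeR adjusted p = 0.0496).

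Set against each other inside each library, Sfrp2 and Sfrp1 separated the groups further. The Sfrp2 count was 1.12, 1.01 and 0.877 times the Sfrp1 count in the fibroblast libraries and 1.38, 1.41 and 1.23 times in calvarial-OB. In iOB it was 0.258, 0.344 and 0.277 times. The iOB libraries lie below all 6 others, and calvarial-OB lies above fibroblasts.

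**Figure D2:**
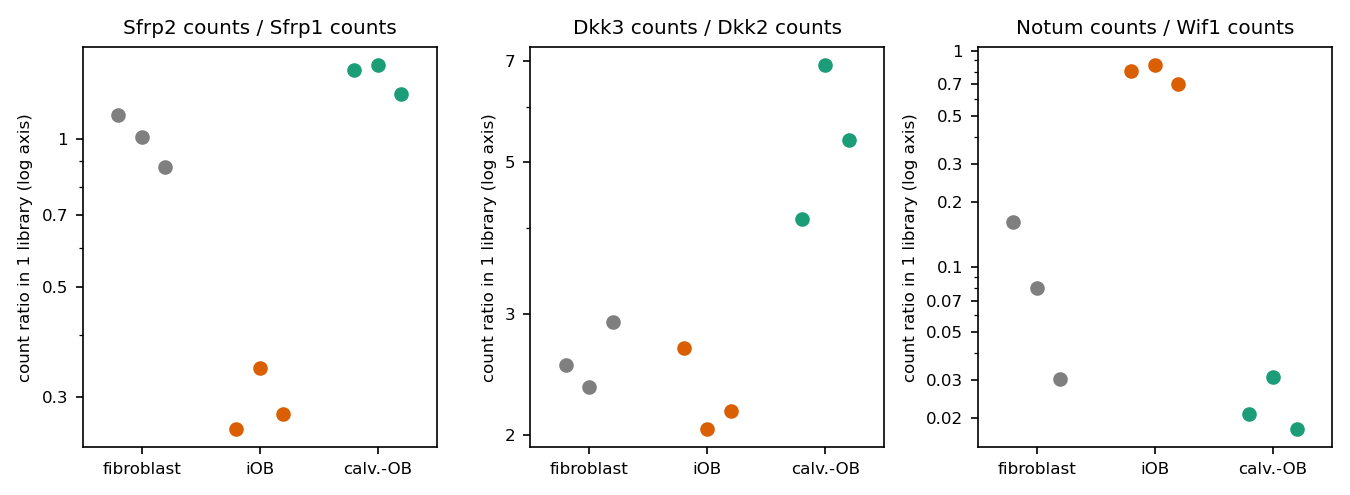
Ratio of the counts of 2 antagonist genes within 1 library (log axis) for the 3 fibroblast, 3 iOB and 3 calvarial-OB libraries, shown for 3 gene pairs; each point is a library. Sfrp2 over Sfrp1 is 0.258 to 0.344 in iOB and at least 0.877 elsewhere, Dkk3 over Dkk2 is highest in calvarial-OB, and Notum over Wif1 is 0.702 to 0.856 in iOB and at most 0.161 elsewhere.

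Sfrp4, a member of the family linked to cortical bone, was scarce. It had 2, 2 and 4 counts in fibroblasts, 18, 11 and 5 in iOB and 44, 27 and 122 in calvarial-OB, or 0.188 to 0.332, 0.817 to 2.72 and 3.31 to 7.93 CPM. The groups rank in that order with no overlap. Sfrp4 rose 5.69-fold in iOB (log2 2.51 ± 0.64 SE, edgeR adjusted p = 0.0076) and 20.1-fold in calvarial-OB (log2 4.33 ± 0.53, adjusted p = 2.9e-05), and was 3.52-fold lower in iOB than in calvarial-OB (adjusted p = 0.004). It passed the count filter through calvarial-OB, where it is high, so these p-values are no support for the differences.

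Wif1, the Wnt inhibitory factor, binds Wnt proteins through a domain unlike that of the Sfrp proteins. It was at 2.92, 3.54 and 2.74 CPM in fibroblasts, 27.8, 16.7 and 18.6 in iOB and 40.3, 59 and 40.1 in calvarial-OB. All 3 groups are apart, in the same order as for Sfrp4. Wif1 rose 6.93-fold in iOB (log2 2.79 ± 0.25 SE, edgeR adjusted p = 4.6e-06) and 15.3-fold in calvarial-OB (log2 3.94 ± 0.25, adjusted p = 1.5e-07), and iOB stayed 2.21-fold below calvarial-OB (log2 -1.14 ± 0.21, adjusted p = 0.00076).

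Notum, the Wnt deacylase, is itself turned on by beta-catenin in several tissues and is counted as a feedback inhibitor. Its counts were 5, 2 and 1 in fibroblasts, 148, 125 and 80 in iOB and 7, 15 and 11 in calvarial-OB. In CPM the iOB libraries stood at 22.4, 14.3 and 13.1 and the calvarial-OB libraries at 0.847, 1.84 and 0.715, and no library of another group came near iOB. Notum was 15.3-fold higher in iOB than in calvarial-OB (log2 3.94 ± 0.38 SE, edgeR adjusted p = 8e-06), beside 58.5-fold against fibroblasts (log2 5.87 ± 0.47, adjusted p = 1.7e-06; 6.59 without fibroblast replicate 1). The rise in calvarial-OB against fibroblasts was 3.82-fold (log2 1.93 ± 0.63, edgeR adjusted p = 0.021). It was lost without fibroblast replicate 3 (log2 1.41, edgeR adjusted p = 0.0889) or calvarial-OB replicate 2 (log2 1.47, adjusted p = 0.0751), and was 2.65 without fibroblast replicate 1. Notum passed the count filter through iOB, where it is high, so its p-values in all comparisons are no support for the differences. Relative to Wif1 in the same library, Notum counts were 0.804, 0.856 and 0.702 times in iOB, 0.161, 0.08 and 0.0303 times in fibroblasts and 0.021, 0.0311 and 0.0178 times in calvarial-OB. Those in iOB lie above all others.

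**Figure D3:**
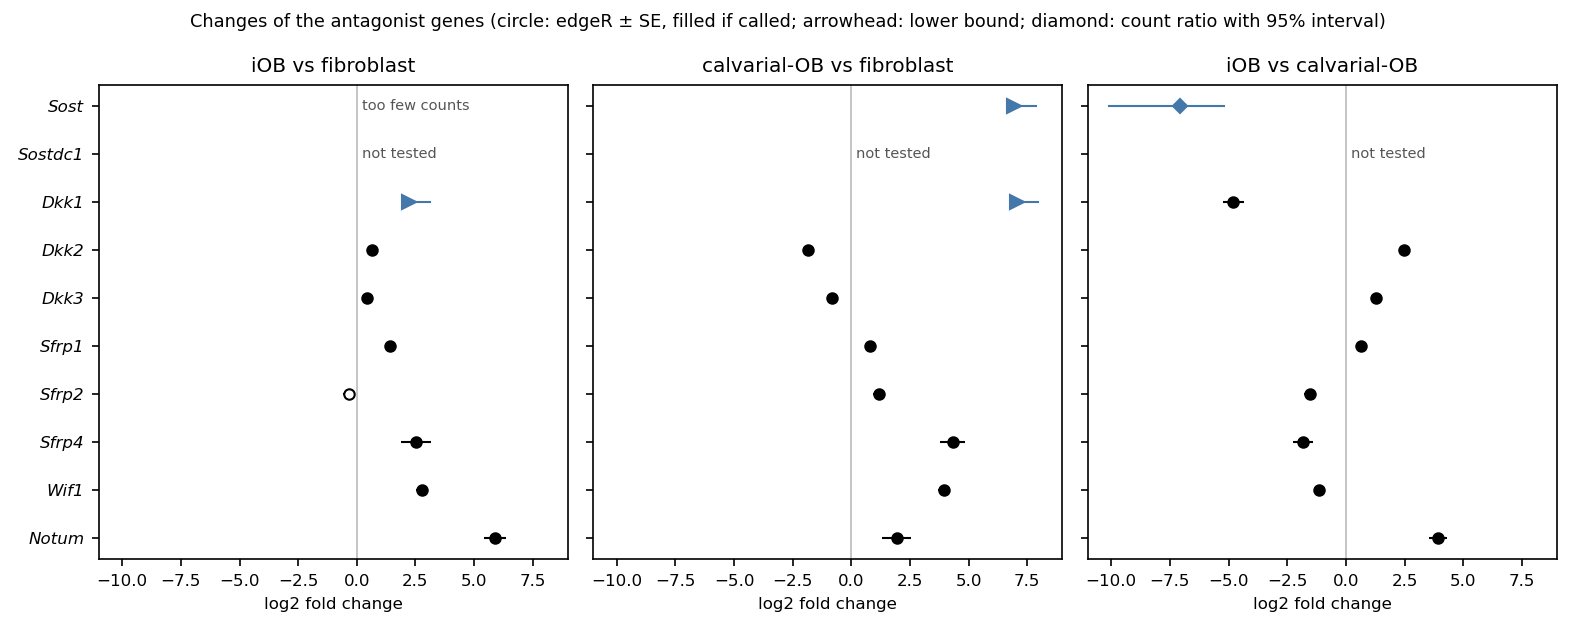
Log2 fold changes of the antagonist genes in the 3 comparisons; circles are edgeR estimates ± SE, filled where called, arrowheads are lower bounds against a group at 0 counts and diamonds are count ratios with a 95% interval. Dkk2 and Dkk3 lie right of 0 in iOB and left of 0 in calvarial-OB against fibroblasts, and Notum has the largest value against fibroblasts in iOB, 5.87, among members with a test.

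Cells sorted from iOB for the Col2.3GFP reporter were high in Sost and Dkk1 and low in Dkk2, Dkk3 and Sfrp2 against fibroblasts. For these cells the authors' deposited table gives log2 fold changes against fibroblasts without values per library. In the authors' deposited table for unsorted iOB such values are moderated towards 0, and for iOB GFP+ this could not be checked. In that table, 5 members were higher, 3 lower and 2 not called, beside 23.7% of all genes higher and 21.7% lower (45.5% in all). In the authors' deposited table for unsorted iOB, 7 were higher, none lower, 2 not called and 1 had no p, beside 19.9% and 15.0% of all genes (34.9% in all). Both comparisons use fibroblast controls, so the tables are set side by side here and the difference between sorted and unsorted cells was not tested.

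The Sost and Dickkopf genes did not all move one way. Sost stood at 0.59 ± 0.78 (SE) without a p-value in the authors' deposited table for unsorted iOB and at 6.21 ± 0.71 (adjusted p = 4.2e-17) in that for iOB GFP+. Dkk1 was at 2.09 ± 0.68 (adjusted p = 0.0079) in unsorted and 6.67 ± 0.77 (adjusted p = 6.2e-17) in sorted cells, by the authors' deposited tables. Both genes had 0 counts in the fibroblast libraries of the count table, so these sizes depend on how each fold change was estimated. Dkk2 was higher in unsorted iOB (0.65 ± 0.18, adjusted p = 0.0015) and lower in iOB GFP+ (-1.65 ± 0.67, adjusted p = 0.033) than in fibroblasts, and Dkk3 likewise (0.48 ± 0.1, adjusted p = 7.1e-06, and -0.89 ± 0.14, adjusted p = 3e-09), in the authors' deposited tables. Sostdc1 was not called in either of the authors' deposited tables (0.54 ± 0.77, adjusted p = 0.65, and 0.79 ± 1.07, adjusted p = 0.59).

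Among the Wnt-binding antagonists, Sfrp1 was higher in unsorted iOB (1.44 ± 0.18, adjusted p = 1.2e-13) and not called in iOB GFP+ (-0.67 ± 0.8, adjusted p = 0.53) in the authors' deposited tables. Sfrp2 was not called in unsorted iOB (-0.32 ± 0.24, adjusted p = 0.31) and lower in iOB GFP+ (-1.32 ± 0.27, adjusted p = 4.5e-06) in the authors' deposited tables. Sfrp4 was at 2.06 ± 0.56 (adjusted p = 0.0011) and 5.07 ± 0.53 (adjusted p = 2.9e-20), and Wif1 at 2.73 ± 0.26 (adjusted p = 4e-24) and 3.87 ± 0.28 (adjusted p = 2.7e-42), unsorted and then sorted, in the authors' deposited tables. Notum, which was low in calvarial-OB, stood at 5.33 ± 0.47 (adjusted p = 8.5e-28) in unsorted iOB and 6.63 ± 0.47 (adjusted p = 2.3e-43) in iOB GFP+ by the authors' deposited tables. The 9 macrophage markers, all higher in unsorted iOB in the authors' deposited table, have log2 fold changes of 2.94 to 4.72 (SE 0.93 to 1.01) without a p-value in the one for iOB GFP+. Their part in the values of the sorted cells was not tested.

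**Figure D4:**
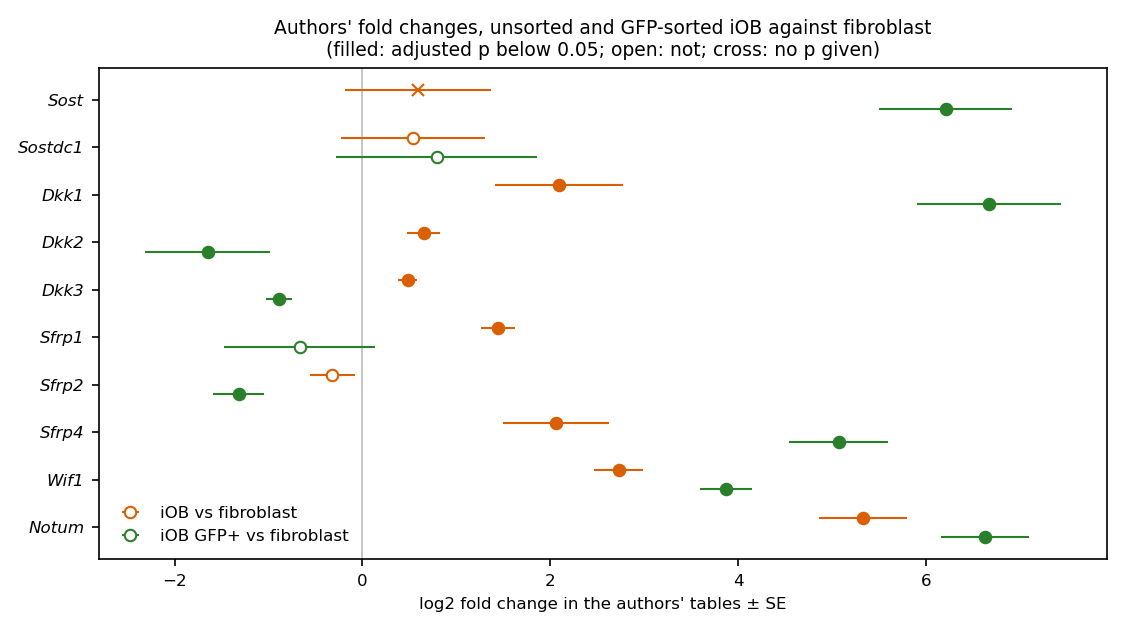
Log2 fold change against fibroblast (± SE) of the 10 antagonist genes in the authors' deposited tables for unsorted iOB and iOB GFP+; filled symbols have an adjusted p below 0.05, open ones do not and a cross marks no p. Sost lies at 0.59 in unsorted iOB and 6.21 in iOB GFP+, while Dkk2 and Dkk3 lie on opposite sides of 0 in the authors' deposited tables.

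No level per library is printed for iOB GFP+. The base mean in that deposited table is an average over libraries, and it was compared with the fibroblast level in the count table and the fold change. An average over fibroblasts and iOB GFP+ alone would hold 1 fixed relation to them. Over 6165 well-measured genes, the base mean was instead 0.38 to 0.967 of their sum (percentiles 1 and 99), so it spans other libraries as well and was not used as a level.

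The genes on which the antagonists act were taken from a list of 21 receptors and co-receptors, 19 of them tested. In iOB against fibroblasts 9 were higher, 4 lower and 6 not called; in calvarial-OB against fibroblasts 6 were higher, 9 lower and 4 not called; and in iOB against calvarial-OB 9 were higher, 2 lower and 8 not called. Of all tested genes, 22.7% were higher and 20.6% lower in the first comparison, 28.4% and 27.4% in the second and 24.7% and 24.1% in the third. The list's medians were 0.04, -0.27 and 0.33, beside -0.04, 0.02 and -0.03 over all genes. Lrp5 and Lrp6, the targets of Sost and Dkk1, were not called in iOB against fibroblasts, at -0.13 ± 0.21 (SE, edgeR adjusted p = 0.63) and -0.11 ± 0.12 (adjusted p = 0.46). For iOB GFP+, the authors' deposited table has Lrp6 lower (-0.39 ± 0.1, adjusted p = 0.00056) and Lrp5 not called (0.17 ± 0.12, adjusted p = 0.27). Lrp4, a co-receptor that presents sclerostin, rose by 3.5 ± 0.18 in iOB (edgeR adjusted p = 7.4e-08) and by 1.14 ± 0.17 in calvarial-OB, and was at 4.28 ± 0.18 (adjusted p = 2.7e-115) in the authors' deposited table for iOB GFP+. Kremen1, which acts with Dkk1, rose by 1.25 ± 0.12 in iOB and was not called in calvarial-OB (0.13, edgeR adjusted p = 0.38). In calvarial-OB, Lrp6 was lower (log2 -0.4 ± 0.12, edgeR adjusted p = 0.011). That call did not hold once fibroblast replicate 2 or calvarial-OB replicate 2 was left out. Lrp5 was not called there (-0.27, edgeR adjusted p = 0.29) and became called without calvarial-OB replicate 1 (-0.62, adjusted p = 0.0014).

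Of 12 target and feedback genes of beta-catenin, 11 were tested. Against fibroblasts 8 were higher, none lower and 3 not called in iOB, and likewise 8, 0 and 3 in calvarial-OB; between iOB and calvarial-OB 6 were higher, 1 lower and 4 not called. The shares of all genes called higher were 22.7%, 28.4% and 24.7%. The list's medians were 1.93, 1.02 and 0.63, beside all-gene medians of -0.04, 0.02 and -0.03. Axin2, a feedback inhibitor inside the cell and a widely used readout of the pathway, rose by 2.12 ± 0.3 in iOB (edgeR adjusted p = 0.00015) and by 1.49 ± 0.3 in calvarial-OB (adjusted p = 0.0013). The difference in Axin2 between iOB and calvarial-OB was 0.63 ± 0.27 (edgeR adjusted p = 0.072), and passed without calvarial-OB replicate 2 (adjusted p = 0.0436) or iOB replicate 2 (adjusted p = 0.0259). Tcf7, a TCF factor, rose by 3.89 ± 0.33 in iOB and 3.79 in calvarial-OB, with no call between them (0.1, edgeR adjusted p = 0.76). Lef1 was not called in either group against fibroblasts (0.68 and -0.69, edgeR adjusted p = 0.21 in both) and differed between iOB and calvarial-OB by 1.37 ± 0.44 (adjusted p = 0.022), a call lost without iOB replicate 1 or 3. In the authors' deposited table for iOB GFP+, 8 of the 11 were higher and none lower, beside 23.7% and 21.7% of all genes, among them Tcf7 (6.45 ± 0.29), Axin2 (2.77 ± 0.27) and Lef1 (2.52 ± 0.36). Notum, Axin2 and Tcf7 were thus all higher in iOB than in fibroblasts, while Notum alone of the 3 was called between iOB and calvarial-OB. That call is not particular to Notum. The 6 listed genes called higher there include Rnf43 (1.63 ± 0.25, edgeR adjusted p = 0.00022) and Apcdd1 (1.62 ± 0.29, adjusted p = 0.00071).

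Wnt ligands, which the antagonists oppose, were listed as 19 genes, with 12 tested. Against fibroblasts, 6 were higher, none lower and 5 not called in iOB, with Wnt7b too scarce in fibroblasts for a test (count ratio 124, 95% interval 41.9 to 604). In calvarial-OB 4 were higher, 4 lower and 3 not called, and iOB against calvarial-OB gave 7 higher, none lower and 5 not called. Over all tested genes, 22.7% were higher and 20.6% lower in iOB, 28.4% and 27.4% in calvarial-OB, and 24.7% and 24.1% between iOB and calvarial-OB. Wnt10b, a ligand linked to bone formation, rose by 3.59 ± 0.25 in iOB and was higher by 2.45 in iOB than in calvarial-OB. Of the other secreted inhibitors only 2 of 6 were tested. Frzb, which also has a Frizzled-like domain, was not called in iOB (0.02 ± 0.19, edgeR adjusted p = 0.95), and Draxin, another LRP6-binding inhibitor, was lower in calvarial-OB than in fibroblasts (-2.35 ± 0.22) and higher in iOB than in calvarial-OB (1.93). R-spondins, which enhance Wnt signalling, had 3 genes that passed the count filter. Rspo2 rose by 1.28 ± 0.33 in iOB (edgeR adjusted p = 0.0077) and by 1.8 ± 0.32 in calvarial-OB. Its fibroblast libraries (10.3 to 22.7 CPM) and iOB libraries (22.2 to 54.1) overlap. Rspo3 was not called in either group (0.35 and 0.14, edgeR adjusted p = 0.12 and 0.5). Rspo1 was too scarce in fibroblasts for a test (count ratio 110 in iOB, 95% interval 19.1 to 4380).

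**Figure D5:**
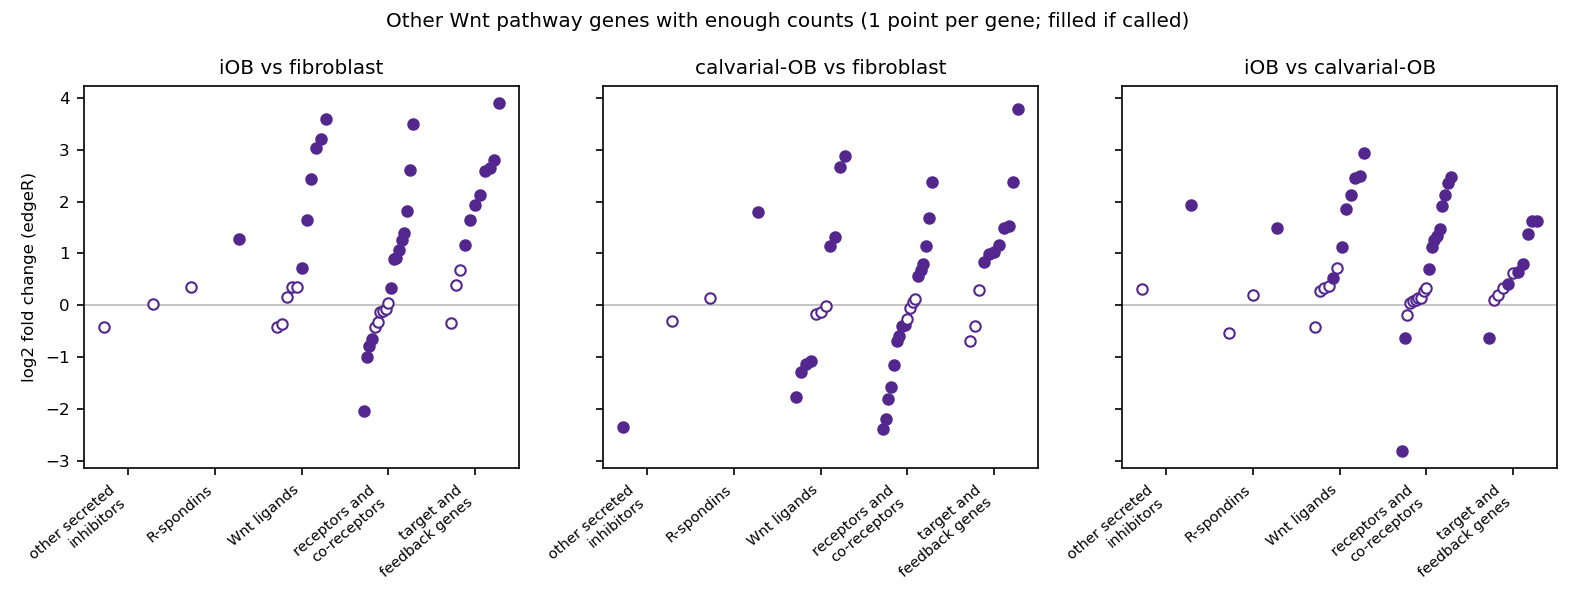
Log2 fold change (edgeR) of the other Wnt pathway genes by list in the 3 comparisons, for genes with enough counts in both groups; each point is a gene, filled where called. Among target and feedback genes, 8 are called higher in both osteoblast groups against fibroblasts, and among Wnt ligands 6 in iOB and 4 in calvarial-OB.

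The genes whose pattern over the 9 libraries was most like that of 2 members were taken by Pearson's r of log2 CPM, as a description. For Sost these were Gpr37l1 (0.992), Ctse (0.988), Pfdn5 (0.986), Gm14085 (0.986) and Sparc (0.981), and 0.893% of the other tested genes had an r above 0.95. For Notum they were Ptpn13 (0.993), Trp53inp2 (0.991), Kcng1 (0.989), Pi4k2a (0.988) and Lifr (0.987), and 1.06% of genes passed 0.95. The points share their libraries and fall into the 3 groups, so such values also carry which group is high.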

How the data were processed

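Poly-A RNA libraries of mouse cells were analysed from the authors' count table, which holds deposited raw counts per gene symbol for the 9 fibroblast, iOB and calvarial-OB libraries. Columns named OB were read as calvarial-OB. The submitters' processing notes list DESeq2 and R 3.2.2, the aligners STAR 2.4.2a and Bowtie2, and the build mm9; how reads were counted, on which annotation and on which strand is not given in the sources used here, so reads of overlapping antisense genes cannot be told apart. Per the file headers, the authors' 2 deposited tables, iOB and iOB GFP+ against fibroblast, give the log2 fold change and its error, a score (the test statistic), the p-value before and after adjustment, and a base mean, which is a signal: the average normalized count over libraries. Refitting the counts with DESeq2 and its prior moved the deposited iOB log2 values by a median of 0.000338, so these are moderated towards 0; the iOB GFP+ table could not be refitted.

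Counts of all 9 libraries were fitted together in R 4.3.3 with edgeR 4.0.16 (limma 3.58.1; filterByExpr, TMM, glmQLFit, glmQLFTest, group as the only term) for 3 comparisons, with Benjamini-Hochberg adjustment over 13438 genes. The SE is the log2 fold change divided by the square root of the F statistic. The fit was checked on simulated data. Where a group had 3 or fewer counts in all, no test was used: against 0 counts the fold is a lower bound against 3 counts over the group, and otherwise a ratio with a 95% Clopper-Pearson interval. Counts have no molecular identifiers, so intervals and floors cover counting error only. Gene lengths were not used, so levels are not compared between genes. Alternatives were other scalings, DESeq2 1.42.0, no filter, the 2 groups alone, a replicate block and each library left out. Values of the scarce members from the main fit were added after seeing the data. All 10 members are named whatever their values; from the pathway lists, 8 fixed genes and up to 3 called genes per list with the largest change could be named, and the text describes part of these. The members and lists were chosen with earlier results of these data known. Promoters came from RefSeq (GRCm38.p6), and figures were drawn with Python 3.11.15 and matplotlib 3.10.9. The methylation values were not used here.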

Additional observations from a re-analysis of the deposited data

Results flagged for a closer look

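Dkk2 and Dkk3 were singled out because their called changes against fibroblasts had opposite directions in iOB and in calvarial-OB. In the same edgeR fit, the difference between the 2 osteoblast groups is the difference of those 2 changes. Its size is thus set by the changes the genes were picked on, and its p-value is no separate support. For Dkk2 the log2 difference, iOB minus calvarial-OB, was 2.49 ± 0.18 (SE, edgeR adjusted p = 1e-06), with every iOB library above every calvarial-OB library. For Dkk3 it was 1.28 ± 0.1 (edgeR adjusted p = 1.3e-06), again with no overlap. Both changes share the 3 fibroblast libraries as controls, which enter the tested difference only through the shared estimate of the spread. As calvarial-OB carry the mark dataset 2, cell type and dataset cannot be told apart here. With 1 library left out at a time, the difference ran from 2.33 to 2.67 for Dkk2 and from 1.27 to 1.37 for Dkk3.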

How the results depend on the processing

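No alternative changed the direction of a called member, and member calls lost or gained when a library was left out stand beside their values in the report. Over libraries left out in turn, genes called ranged from 4717 to 6728 for iOB against fibroblast, 6580 to 7825 for calvarial-OB against fibroblast and 5435 to 7203 for iOB against calvarial-OB, beside 5820, 7494 and 6562 with all libraries; members called were 6 to 7, 6 to 7 and 8. With only the 2 groups compared in the fit, 5, 6 and 8 members were called, since Sfrp4 in iOB and Notum in calvarial-OB then did not pass the count filter. In the check for pairing by number, replicates with the same number correlated at -0.146 to 0.147. In the 3 comparisons, 1, 4 and 0 of 6 libraries correlated best with their own number. Groups of 3 libraries are too small for this to decide whether the numbers pair libraries. A replicate block gave 5614, 7364 and 6302 called genes and changed no member's call. Fold changes that turned sign were small and not called: Frzb in iOB against fibroblast (-0.06, -0.02 and -0.09 without fibroblast replicate 1, iOB replicate 1 and iOB replicate 3, within -0.09 to 0.16 over libraries left out), and between iOB and calvarial-OB Lrp5 (-0.07 without calvarial-OB replicate 3, up to 0.52) and Tcf7 (-0.1 and -0.04 without calvarial-OB replicate 1 and iOB replicate 1, up to 0.45); the cause was not tested. Over all alternatives, edgeR or DESeq2 adjusted p ran from 0.0496 to 0.784 for Sfrp2 in iOB and from 0.00604 to 0.0889 for Notum in calvarial-OB against fibroblast, from 0.00137 to 0.891 for Lrp5 and 0.0013 to 0.0725 for Lrp6 in the latter, and from 0.0259 to 0.279 for Axin2 and 0.0207 to 0.0645 for Lef1 between iOB and calvarial-OB. Fitted values of the scarce members in the main edgeR fit were added after seeing the data. In calvarial-OB against fibroblast, adjusted p was 0.00023 for Sost and 2.1e-06 for Dkk1. It was 0.014 for Dkk1 in iOB against fibroblast and 0.00071 for Sost between iOB and calvarial-OB. Both genes passed the count filter through the group where they are high, so these p-values are no support for the differences. The same holds for Dkk1 between iOB and calvarial-OB and for Sfrp4 and Notum in every comparison. Depth limits Sost in iOB, with 2 counts in all, and Sostdc1 throughout.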

Other observations

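The 3 iOB libraries differed among themselves in which antagonists were high, a pattern seen after the values were known and resting on 1 library. Replicate 1 had the highest CPM of its group for Dkk1 (0.755), Sfrp4 (2.72), Wif1 (27.8) and Notum (22.4). It also had the lowest for Dkk2 (228), Sfrp1 (728) and Sfrp2 (188). The osteocyte gene Dmp1 was lowest in the same library, at 16.6 CPM. With 3 libraries this was not tested.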
